A study of Homo sapiens with 6 samples.

Results

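The protocadherins are the 66 protein-coding human genes whose symbol begins with PCDH, of 57773 genes in the count table. Members were chosen by symbol alone. Of them, 63 had their Ensembl identifier in the table, made up of 15 of 15 alpha genes (PCDHA), 15 of 16 beta genes (PCDHB), 21 of 22 gamma genes (PCDHG) and 12 of 13 single, non-clustered genes. PCDHB16, PCDHGB5 and PCDH20 had no matching identifier and were not analysed here. The cells were U251, an established human glioblastoma line. One stable line carried a lentiviral construct for PD-L1, the T-cell checkpoint ligand encoded by CD274, and the control line carried the lentiviral vector only (group names PD-L1 and Vector). Each line gave 3 dishes of 100 mm, all at passage 5-10, grown in DMEM with 10% serum and taken 12 h after passage. The labels call the dishes independent, but each group is a single transduced line, and p-values therefore reflect dish-to-dish spread only.

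Protocadherins are cadherin-like adhesion proteins of the cell surface, best known from the nervous system. The alpha, beta and gamma genes stand in tandem on chromosome 5. Each has its own promoter and a large variable exon for the extracellular, transmembrane and proximal cytoplasmic parts. In neurons, promoter choice among them gives single cells different sets of isoforms, and proteins of matching sets recognise each other across cell contacts. CTCF and cohesin bring a distal enhancer to the chosen promoter, and DNA methylation silences the others. The single protocadherins lie at scattered loci and have individual cytoplasmic tails that bind signalling and actin regulators.

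Alpha genes join their variable exon to shared 3′ exons, and so do gamma genes, whereas beta genes have no shared exon. The 2 short coding exons shared by all genes of a cluster are shown because a read within them cannot be assigned to 1 gene. They were read from GENCODE 29 transcripts (GRCh38), in the sense direction. Both first shared exons are 59 bases long and both second ones 89 bases.
PCDHA shared exon, 15 of 15 genes: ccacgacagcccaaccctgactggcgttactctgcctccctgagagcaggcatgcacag
PCDHA next shared exon, 15 of 15 genes: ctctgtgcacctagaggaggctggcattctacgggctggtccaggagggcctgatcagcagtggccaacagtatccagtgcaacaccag
PCDHG shared exon, 22 of 22 genes: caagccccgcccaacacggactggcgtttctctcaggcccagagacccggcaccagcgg
PCDHG next shared exon, 22 of 22 genes: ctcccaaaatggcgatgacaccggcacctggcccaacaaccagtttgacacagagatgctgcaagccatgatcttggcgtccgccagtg
A longer last exon is also shared. Outside exons of other genes, a median of 50.6% of the exonic bases remained for an alpha gene and 56.1% for a gamma gene, against 94.9% for a beta gene. How the authors' counting treated reads in shared exons is not given in the sources used here, so the count of a single alpha or gamma isoform is ambiguous. Levels between genes are compared below as CPM (raw counts scaled to a common library size with TMM factors) per kb of these gene-specific exons.

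Similar variable exons add a further limit. In PCDHGC3, PCDHGC4, PCDHGC5, PCDHGB3, PCDHAC1, PCDHAC2 and PCDHB1, 0% of 50-base words of the variable exon occurred in another protocadherin. The share was 1.23% in PCDHGA9, 11.3% in PCDHGB2, and 9.36%, 10.4%, 20.3% and 20.9% in PCDHB7, PCDHB14, PCDHB2 and PCDHB9. In PCDHB10 it was 35.4%, with PCDHB9 as its closest gene, so reads may be mixed between them. PCDHGA5 and PCDHGA11 had 0.514% and 0.809%. PCDHB8 reached 45.7%, with PCDHB13 as its closest gene. PCDHGB4 and PCDHGA8 are left out of this comparison, since their annotated exons overlap each other outside the constant exons. PCDH11X and PCDH11Y, near-identical copies on the X and Y chromosomes, shared 57.3% and 58.1%, so reads may be split between them. Among the other single genes no such word was shared.

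Promoters of clustered protocadherins are known for a short conserved element with a CGCT core. RefSeq windows (GRCh38.p14, 250 bases before to 50 after the start) were available for 58 members, 47 of them clustered. GGCGCT, on either strand, was present in 13 of 14 beta, 11 of 25 gamma and 1 of 13 alpha windows. CGCTGT was present in 21 of 25 gamma, 7 of 13 alpha and 1 of 14 beta windows. Each word was in 2 of 15 windows of single genes. Among all 35116 windows of the same length, 21.7% held GGCGCT and 11.2% held CGCTGT. The bare CGCT, which lies within both, was in 14 of 14 beta, 25 of 25 gamma and 12 of 13 alpha windows, but also in 70% of all windows. Both longer words were chosen after the most frequent 8-base words of these promoters had been listed. Of the 8 clustered genes called lower below, the 7 that had a window are shown with the match in capitals, 5′ to 3′ on the + strand of chromosome 5.
PCDHB2, chr5:141094536-141094581: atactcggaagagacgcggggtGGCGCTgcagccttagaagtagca
PCDHB7, chr5:141172558-141172603: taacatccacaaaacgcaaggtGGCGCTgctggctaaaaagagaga
PCDHB9, chr5:141187066-141187111: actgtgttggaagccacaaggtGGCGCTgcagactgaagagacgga
PCDHB14, chr5:141223255-141223300: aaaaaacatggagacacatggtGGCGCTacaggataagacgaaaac
PCDHGB2, chr5:141359915-141359960: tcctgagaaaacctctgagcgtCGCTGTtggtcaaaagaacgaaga
PCDHGA9, chr5:141402708-141402753: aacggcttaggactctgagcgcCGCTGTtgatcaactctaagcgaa
PCDHGC3, chr5:141475874-141475919: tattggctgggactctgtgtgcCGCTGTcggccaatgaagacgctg
The counts above took either strand, whereas in the called genes the words were sought in the gene's sense direction only. These matches are a description of letters only. The match began 57 to 73 bases before the annotated start in the 4 beta genes. It began 199, 48 and 70 bases before it in PCDHGB2, PCDHGA9 and PCDHGC3, the last of which held 4 matches in that direction. PCDH1, a single gene, held neither word in the sense direction of its window, and its other strand was not searched. PCDHGC5 is named only.

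Library totals ran from 15678989 to 22270509 counts, and 3 counts corresponded to 0.138 to 0.185 CPM. CD274 had 22001 to 26827 counts in PD-L1 dishes and 34 to 71 in Vector dishes, which matches the labels. Of all 15818 genes tested, 8.75% passed an adjusted p under 0.05, with 7.2% lower and 1.55% higher in PD-L1 dishes. Lower genes made up 82.3% of the calls, and 60.3% when GC content and exon length entered as an offset. The glioma-line markers VIM, NES, SOX2, EGFR and CD44 were present in every dish and all 5 were called lower, and their sum was 514 to 658 CPM with PD-L1 against 957 to 1107 CPM with Vector. Of 6 myeloid markers 2 were tested and 1, AIF1, fell (sum 1.23 to 1.81 against 2.49 to 3.22 CPM), with PTPRC at most 11 counts and CD68 at most 1 count in a dish and CD68 at 0 in all Vector dishes. Of 5 endothelial markers 3 were tested and 2, KDR and TEK, fell (3.20 to 3.96 against 4.94 to 5.98 CPM), and of 7 oligodendrocyte markers 3 were tested and 1 fell (15.4 to 16.2 against 16.9 to 18.8 CPM), with MOG at most 1 count. AIF1 and TEK passed the low-count filter through Vector dishes only. Of 8 neuronal markers 7 were tested and 1 fell (23.0 to 27.5 against 28.8 to 29.5 CPM), and of 7 astrocyte markers 4 were tested and 2 fell (134 to 141 against 151 to 176 CPM). Each of these 6 sums was lower in PD-L1 dishes without overlap, no marker on these lists was called higher, and their part in the protocadherin results was not tested.

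Summed over their genes, the beta and gamma clusters stood 2.11 and 2.28 times lower in PD-L1 than in Vector dishes, while the summed levels of the single genes overlapped. A filter on low counts kept 21 members, namely 0 alpha, 5 beta, 6 gamma and 10 single genes, and 42 were too low to test. Of these 21, 9 fell and 0 rose in edgeR's quasi-likelihood test: PCDHB2, PCDHB7, PCDHB9 and PCDHB14, PCDHGB2, PCDHGA9, PCDHGC3 and PCDHGC5, and the single gene PCDH1. At the same adjusted threshold, 7.2% of all tested genes were called lower and 1.55% higher. At an unadjusted p under 0.05, 12 of the 21 passed. The share of all tested genes at that unadjusted cutoff was not computed, so this count has no background beside it. The median log2 fold change was -1.10 over the 5 beta genes, -1.12 over the 6 gamma genes and -0.10 over the 10 single genes, against 0.02 over all genes tested. Of the 21, 18 passed the filter's level in all 6 dishes and 2, PCDHGA5 and PCDH11X, reached it in every Vector dish but not in every PD-L1 dish. In bulk RNA, fewer cells that use an isoform and less RNA per cell cannot be told apart.

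**Figure D1:**
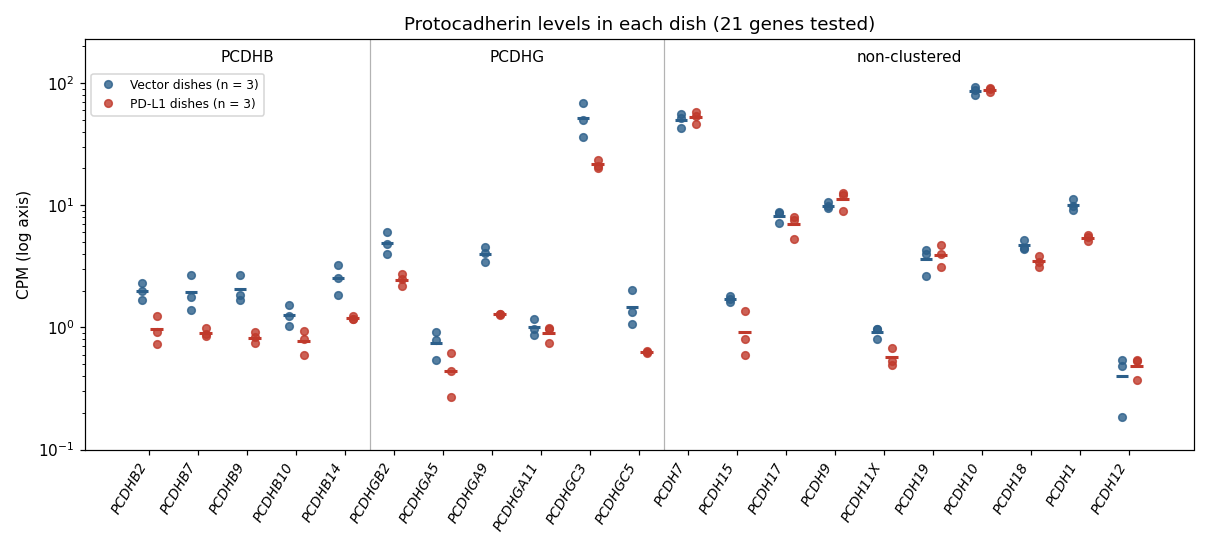
CPM (log axis) of the 21 tested protocadherins in each dish, with 3 Vector dishes in blue, 3 PD-L1 dishes in red and a bar at each group mean. PCDHGC3 lay between 36.3 and 68.7 CPM with Vector and between 20.3 and 23.7 CPM with PD-L1, while PCDH10 and PCDH7 overlapped between groups.

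Among gamma genes, PCDHGC3 took most of the cluster's counts. It is a C-type isoform, a kind used more regularly across cells than the others. PD-L1 dishes 1 to 3 held 416, 340 and 442 of its reads, and Vector dishes 1 to 3 held 1492, 743 and 929. That is 20.3, 20.9 and 23.7 CPM against 68.7, 36.3 and 50.01 CPM. All PD-L1 dishes lay below all Vector dishes, and Vector dish 1 was well above the other two. The log2 fold change was -1.26 ± 0.20 (SE, edgeR quasi-likelihood, adjusted p = 0.00655). For each of the 9 called members an exact two-sided permutation test returned p = 0.1, and a design of 3 against 3 cannot go lower. The call ended when any single PD-L1 dish was left out, with adjusted p up to 0.101, although the log2 fold change stayed between -1.46 and -0.995 over all 16 other fits.

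PCDHGA9, an A-type gamma isoform, had the largest fall among the 21 tested members. Its level was 1.27, 1.29 and 1.28 CPM with PD-L1 and 4.56, 3.42 and 4.04 CPM with Vector. The PD-L1 dishes were nearly equal to each other and the groups were far apart. In edgeR it was 3.12-fold lower (log2 fold change -1.64 ± 0.20, adjusted p = 3.09e-04), and it passed in all 16 other fits. PCDHGB2, a B-type isoform and the next gamma gene by level after PCDHGC3, had 2.49, 2.71 and 2.20 CPM with PD-L1 and 6.03, 3.96 and 4.84 CPM with Vector. It too showed no overlap, and its log2 fold change was -1.01 ± 0.20 (edgeR adjusted p = 0.00584). This gene also passed in all 16 other fits, with adjusted p up to 0.0401.

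PCDHGC5, another C-type isoform, was close to the detection limit of the test. It had 13, 10 and 12 counts in PD-L1 and 44, 22 and 25 counts in Vector dishes, without overlap. It was 2.35-fold lower (edgeR adjusted p = 0.0289), a call that ended in DESeq2 and when PD-L1 dish 1, PD-L1 dish 2 or Vector dish 1 was left out. PCDHGC4, the remaining C-type gamma gene, was too low to test, with 2, 9 and 9 counts in PD-L1 and 11, 9 and 11 counts in Vector dishes. Those counts touch at 9, and the scaled levels overlapped, at 0.098, 0.555 and 0.482 CPM against 0.506, 0.440 and 0.592 CPM.

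The other tested gamma isoforms did not pass. PCDHGA11 had 0.976, 0.986 and 0.750 CPM with PD-L1 and 0.966, 1.17 and 0.861 CPM with Vector, overlapping, with a log2 fold change of -0.15 ± 0.29. PCDHGA5 had 9, 10 and 5 counts against 17, 11 and 17, a log2 fold change of -0.76 ± 0.40 with an edgeR adjusted p of 0.266. The 15 gamma genes below the filter had at most 12 counts in any dish. Their counts summed to 51, 37 and 31 in PD-L1 and 76, 79 and 52 in Vector dishes. The count of PD-L1 dish 1 came close to that of Vector dish 3, while the scaled sums, 1.66-2.49 CPM against 2.80-3.86 CPM, did not overlap.

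Summed over all 21 genes, the gamma cluster stood at 28.6, 29.5 and 30.5 CPM with PD-L1 and 86.5, 50.4 and 64.8 CPM with Vector, a ratio of 2.28 between the means. PD-L1 dishes clustered tightly and Vector dishes were spread. Without PCDHGC3, the 20 other genes summed to 8.30, 8.50 and 6.80 CPM against 17.9, 14.0 and 14.8 CPM, a ratio of 1.98. By subfamily the ratio was 2.20 for the 12 A-type, 1.76 for the 6 B-type and 2.37 for the 3 C-type genes. No test was made of these sums.

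Shares within the gamma cluster were compared as percent of its counts. PCDHGC3 supplied 71.0, 71.1 and 77.7% of gamma counts in PD-L1 and 79.4, 72.1 and 77.2% in Vector dishes, so its share overlapped while its level did not. PCDHGB2 supplied 8.70, 9.21 and 7.21% against 6.97, 7.86 and 7.48%, also overlapping. PCDHGA9 was the exception among the 4 called gamma genes, at 4.44, 4.39 and 4.22% in PD-L1 and 5.27, 6.80 and 6.23% in Vector dishes. PCDHGA11, tested but not called, had a higher share in every PD-L1 dish, at 3.41, 3.35 and 2.46% against 1.12, 2.33 and 1.33%. The share of PCDHGA5 overlapped. The untested PCDHGB1 and PCDHGB3 also had higher shares in every PD-L1 dish, at 2 to 12 counts in a dish. Scaled to gene-specific exon length, the Vector level of PCDHGC3 was 15.9 CPM per kb, with PCDHGB2 at 1.91, PCDHGA9 at 1.56 and PCDHGC5 at 0.528 CPM per kb.

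**Figure D2:**
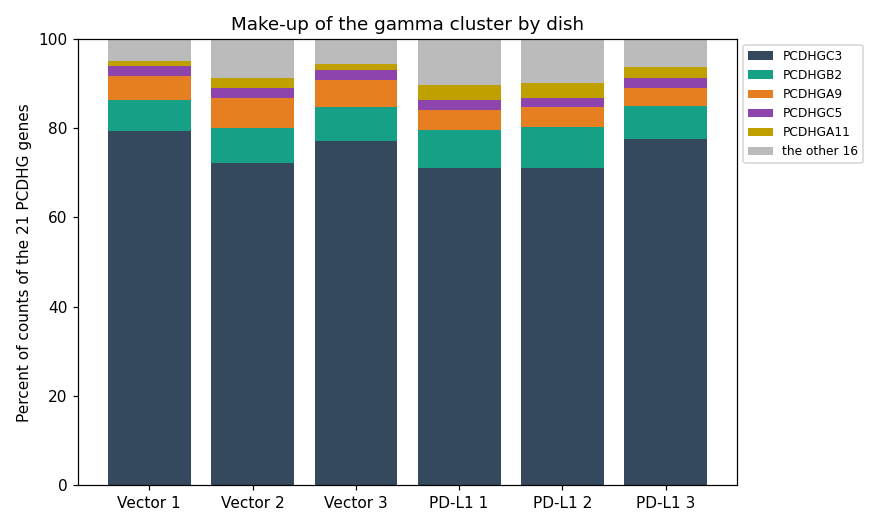
Percent of the counts of the 21 gamma genes in each dish, stacked, with 5 genes in their own colours and the other 16 in grey. PCDHGC3 makes up 71.0 to 79.4% of each bar in both groups.

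The beta genes, which encode protocadherins without a shared constant domain, were individually low. PCDHB14 had the highest CPM of them, not corrected for length, at 1.17, 1.17 and 1.23 CPM with PD-L1 and 3.27, 1.86 and 2.53 CPM with Vector. Its log2 fold change was -1.10 ± 0.25 (edgeR adjusted p = 0.0159). PCDHB9 had the largest fall of the beta genes tested, with 0.830, 0.739 and 0.910 CPM with PD-L1 and 2.67, 1.86 and 1.67 CPM with Vector. It was 2.49-fold lower (edgeR adjusted p = 0.00925). In both genes every PD-L1 dish lay below every Vector dish.

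PCDHB2 and PCDHB7 fell by similar amounts. PCDHB2 had 15, 15 and 23 counts in PD-L1 and 50, 34 and 37 counts in Vector dishes (log2 fold change -1.05 ± 0.27, edgeR adjusted p = 0.0273). PCDHB7 had 18, 16 and 16 against 58, 36 and 26 counts (log2 fold change -1.11 ± 0.29, edgeR adjusted p = 0.0303). Groups did not overlap in either gene. Both overlap an opposite-strand gene in GENCODE 29, and PCDHB9 and PCDHB14 a same-strand one, whose reads cannot be told apart from theirs. PCDHB10 was also lower in every PD-L1 dish, at 0.927, 0.801 and 0.589 CPM against 1.52, 1.03 and 1.24 CPM, but it missed the threshold (adjusted p = 0.172). Of the 5 tested beta genes all 5 had groups that did not overlap, as had 4 of the 6 gamma genes and 4 of the 10 single genes, against 15.5% of all tested genes for that direction.

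The beta calls leaned on Vector dish 1. That dish was highest in all 4 called beta genes, and without it 0 beta genes passed in edgeR, with adjusted p from 0.0648 for PCDHB9 to 0.188 for PCDHB7. Log2 fold changes of the 4 genes stayed between -1.46 and -0.807 over all other fits. Without PD-L1 dish 1 only PCDHB9 among the beta genes was called, and without PD-L1 dish 2 PCDHB9 and PCDHB14 were.

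PCDHB1, the first beta gene in order and one without a close copy, had 0 counts in all 6 dishes, which allows up to 0.138 to 0.185 CPM in a dish. The 10 untested beta genes had at most 12 counts in any dish. They summed to 20, 17 and 16 counts in PD-L1 and 52, 36 and 37 counts in Vector dishes, again without overlap. All 15 beta genes together reached 5.51, 5.67 and 5.68 CPM against 14.8, 9.92 and 10.8 CPM, a ratio of 2.11. PCDHB14 supplied 20.7 to 21.7% of beta counts in PD-L1 dishes and 18.7 to 23.4% in Vector dishes. Its share overlapped between groups, whereas the sums did not.

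**Figure D3:**
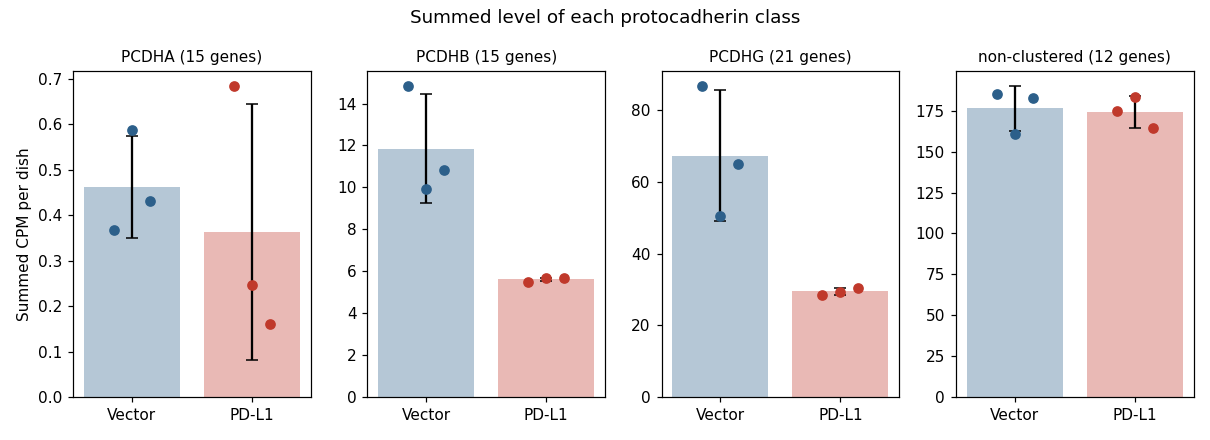
Summed CPM of each class per dish (points), with the group mean as a bar and the SD (n = 3) as the error bar. The beta sums (5.51 to 5.68 against 9.92 to 14.8 CPM) and gamma sums (28.6 to 30.5 against 50.4 to 86.5 CPM) are separate, whereas alpha and single-gene sums overlap.

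The alpha cluster was almost silent in U251. The 15 genes together held 14, 4 and 3 counts in PD-L1 and 8, 12 and 8 counts in Vector dishes. These sums overlapped, and at this depth no difference was detectable. No alpha gene had more than 5 counts in a dish. The highest total over the 6 dishes was 12, for PCDHAC2, a C-type isoform, and PCDHA5 had 0 counts. Reads in the shared alpha exons may be missing from these counts.

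The single protocadherins with the highest CPM did not pass the test. PCDH10, a delta-2 protocadherin whose tail binds the WAVE actin regulatory complex, had 84.4, 91.1 and 90.1 CPM with PD-L1 and 87.2, 79.7 and 92.0 CPM with Vector (log2 fold change 0.04 ± 0.08, edgeR adjusted p = 0.824). PCDH7, a delta-1 protocadherin that binds protein phosphatase 1, had 54.2, 57.6 and 45.8 CPM against 55.5, 43.0 and 51.6 CPM (log2 fold change 0.07 ± 0.11, edgeR adjusted p = 0.746). PCDH9, another delta-1 member, had 12.7, 12.0 and 8.89 against 10.5, 9.48 and 9.80 CPM (log2 fold change 0.17 ± 0.14, edgeR adjusted p = 0.496). Groups overlapped in all 3 genes, and the signs of PCDH10 and PCDH7 turned when Vector dish 2 was left out. Per kb, PCDH10 stood at 8.49 and PCDH7 at 4.09 CPM per kb in Vector dishes, below PCDHGC3. In PD-L1 dishes the order differed, with PCDH10 at 8.71, PCDHGC3 at 6.66 and PCDH7 at 4.29 CPM per kb. Both orders rest on gene-specific exon length, which overstates PCDHGC3 if reads in shared exons were counted for it. For single genes that length spans all annotated exons, which lowers their CPM per kb. It was 12.249 kb for PCDH7 and 10.161 kb for PCDH10, against 6769 and 8489 bases in their longest coding transcripts. The orders could differ with another choice of length.

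PCDH1 was the one single gene that fell. It is a delta-1 protocadherin of epithelial and other adherent cells and an entry receptor of some hantaviruses. Its level was 5.71, 5.11 and 5.46 CPM with PD-L1 and 11.3, 9.92 and 9.10 CPM with Vector, with a wide gap between the groups. It was 1.86-fold lower (log2 fold change -0.90 ± 0.14, edgeR adjusted p = 0.00115) and passed in all 16 other fits. PCDH1 lies on chromosome 5 downstream of the gamma cluster.

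Other single genes were lower in every PD-L1 dish without passing. PCDH15, a tip-link protein of inner ear hair cells, had 28, 13 and 11 counts in PD-L1 and 35, 37 and 32 counts in Vector dishes (edgeR adjusted p = 0.0889). It passed without PD-L1 dish 1, without a low-count filter and with the GC and length offset. PCDH18, a delta-2 member, had 3.42, 3.14 and 3.85 against 4.37, 5.23 and 4.47 CPM (edgeR adjusted p = 0.126). PCDH11X had 14, 8 and 10 against 21, 20 and 15 counts (edgeR adjusted p = 0.22). The delta-2 genes PCDH17 and PCDH19 had overlapping groups at 5.30 to 8.07 against 7.14 to 8.88 CPM and 3.11 to 4.68 against 2.64 to 4.33 CPM. PCDH12, an endothelial protocadherin whose exons overlap RNF14 on the opposite strand, overlapped at 4 to 11 counts in Vector and 6 to 11 counts in PD-L1 dishes. PCDH8 and PCDH11Y were too low to test, at no more than 8 counts in a dish.

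**Figure D4:**
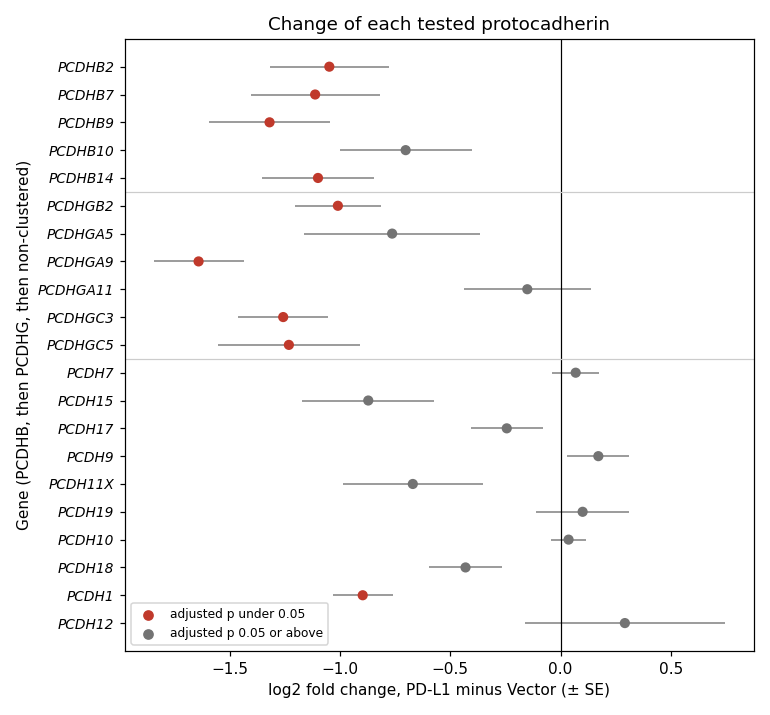
Log2 fold change (PD-L1 minus Vector, ± SE) of the 21 tested protocadherins, with adjusted p under 0.05 in red. All 11 clustered genes lie below 0, from -1.64 for PCDHGA9 to -0.15 for PCDHGA11, while the 10 single genes lie from -0.90 for PCDH1 to 0.29 for PCDH12.

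Summed over all 12 single genes, the level was 174.8, 183.6 and 164.4 CPM with PD-L1 and 185.4, 160.8 and 182.7 CPM with Vector, so the groups overlapped. The sum is dominated by PCDH10 and PCDH7. PCDH10 supplied 48.3 to 54.8% of it in PD-L1 and 47.0 to 50.4% in Vector dishes. Relative to the Vector mean, the median tested beta gene lay at -0.84, -0.80 and -0.79 in PD-L1 dishes 1 to 3 and at 0.32, -0.19 and -0.01 in Vector dishes (log2 of CPM + 0.5). For tested gamma genes the values were -0.81, -0.77 and -0.88 against 0.23, -0.26 and -0.004. Both clusters were thus highest in Vector dish 1 and lowest of the Vector dishes in dish 2. The added 0.5 shrinks the differences of low-level genes. These falls therefore look smaller than the edgeR medians of -1.10 for beta and -1.12 for gamma genes.

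Expressed genes next to the clusters, chosen after the member values were seen, gave the setting. The nearest 10 tested protein-coding genes on each side and TAF7, between the beta and gamma clusters, made 21 neighbours. Of these, 1 fell and 0 rose, near the shares of all tested genes (7.2% lower, 1.55% higher). Their median log2 fold change was 0.02. TAF7, a subunit of the general transcription factor TFIID that stands between PCDHB14 and PCDHGB2 among tested genes, had a log2 fold change of 0.03 ± 0.08 (edgeR adjusted p = 0.846). DIAPH1, a formin just downstream of the gamma cluster, had -0.15 ± 0.07 (edgeR adjusted p = 0.201). The neighbour that fell was ARAP3, a GTPase-activating protein beside PCDH1, at -0.63 ± 0.11 (edgeR adjusted p = 0.00335). Whether clustered genes differ from these neighbours was not tested.

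**Figure D5:**
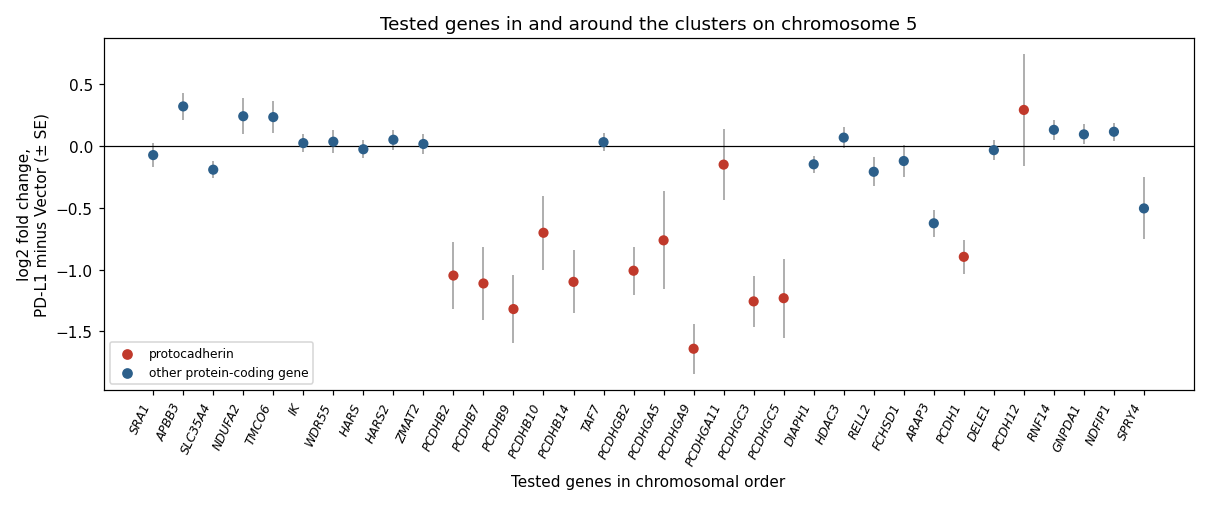
Log2 fold change (PD-L1 minus Vector, ± SE) of tested protein-coding genes in their order along chromosome 5, protocadherins in red and others in blue. The clustered genes lie between -1.64 and -0.15, TAF7 between the clusters lies at 0.03, and ARAP3 is at -0.63 next to PCDH1 at -0.90.

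Genes known to control the clusters were taken from a list. Of 24 chromatin regulators tested, among them CTCF, cohesin subunits, SMCHD1, SETDB1 and DNA methyltransferases, 0 fell and 1 rose, where 7.2% and 1.55% of all tested genes did, so the count of risen genes is near the background. Their median log2 fold change was 0.04. The member that rose was STAG2, a cohesin subunit, from 341.7 ± 26.7 to 416.9 ± 31.2 CPM (mean ± SD, n = 3, edgeR adjusted p = 0.0498). That value lay just under 0.05, and genes of these lists were not followed in the other fits. CTCF itself averaged 95.1 ± 1.93 CPM with Vector and 87.9 ± 3.60 CPM with PD-L1 (SD, n = 3), and its adjusted p in edgeR was 0.366.

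Partners of protocadherins inside the cell and the enzymes that cleave them gave a similar count. Of 26 listed genes 24 were tested (CYFIP1 and MARCKS had no matching identifier), 1 fell and 0 rose, with a median of -0.04. That gene was ADAM10, the sheddase that cuts gamma protocadherins at the cell surface, from 111.4 ± 1.94 to 90.2 ± 11.3 CPM (n = 3, edgeR adjusted p = 0.0495). The ADAM10 value also lay just under 0.05 and was not followed in the other fits. Of 15 other large non-classical cadherins 14 were tested, 1 fell and 0 rose, with a median of -0.01. Both counts lie near the 7.2% of all tested genes that fell and the 1.55% that rose. FAT1, a giant cadherin, fell from 118 ± 21.9 to 76.1 ± 6.47 CPM (n = 3, edgeR adjusted p = 0.00478).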

How the data were processed

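Poly-A RNA from 6 dishes was sequenced. The authors deposited raw counts per Ensembl gene and a second table of normalized counts on a signal scale. Dividing raw counts by a dish-specific factor gave the deposited signal values; that table served only for the factors. Per the submitters' processing notes, CASAVA 1.8, STAR 2.5.1b and HTSeq 0.6.0 were used with hg19. No label or header names the annotation release or the strand setting. The kit named in the labels' protocols does not mark strand, so opposite-strand overlaps cannot be separated.

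Gene symbols were matched through a name table (51996 identifiers) and GENCODE 29 (342 more). GENCODE 29 is on GRCh38, another build than the files. It gave names, gene types, exon lengths and overlaps, GC content, gene order and transcript sequences, but no counts. Shared exons and promoter windows are GRCh38 sequences.

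Raw counts of all genes were filtered with filterByExpr (about 0.516 CPM in at least 3 dishes), scaled by TMM and tested with edgeR 4.0.16 (robust quasi-likelihood, no covariates, R 4.3.3), with Benjamini-Hochberg adjustment over 15818 genes. The standard error is the log2 fold change divided by the root of F. CPM was computed from raw counts and TMM-scaled library sizes. Depths ran from 15678989 to 22270509 counts. The gene family and the gene lists were chosen with earlier results of these data known. Within the family, members were taken by symbol alone. Full statistics were given for members that passed and the 3 tested members of highest mean CPM in each class, and of each gene list for up to 4 members that passed; exceptions chosen after values were seen are PCDHGA5, PCDHGA11, PCDHB10, PCDH15, PCDH18, PCDH11X, CTCF and the neighbouring genes. On simulated counts (15818 genes) of PD-L1 against Vector, 64.2% of genes changed 1.5-fold and 80.6% of genes changed 2-fold were recovered. Of the calls, 6.43% were false. The changed genes were drawn at random from all tested genes, so recovery at the low levels of most clustered members was not measured. Alternatives used limma 3.58.1 and DESeq2 1.42.0.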

Additional observations from a re-analysis of the deposited data

How the results depend on the processing

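The 9 lower protocadherins were also called under upper-quartile scaling, under relative log expression scaling, with the authors' factors, with limma-voom, no filter and a mean of at least 1 CPM. DESeq2 called 8, without PCDHGC5. Leaving out 1 dish gave 4 to 8 of these 9 and 4 to 8 lower members in all, with 0 higher (0 to 0). The genes changed ranged from 545 to 3512 in those fits, lowest without Vector dish 1 and highest without PD-L1 dish 3. Lower members numbered 5 when PD-L1 dish 1 was left out (4 of the 9, plus PCDH15), 5 for PD-L1 dish 2 and 4 for Vector dish 1. At an FDR of 0.01, 530 genes changed and 5 members were lower. With a GC and length offset 2218 genes changed, and 60.3% of calls were lower against 82.3%. With total-count scaling the log2 ratio of the beta sum was -1.022 and of the gamma sum -1.134. Without Vector dish 2, PCDH7 and PCDH10 turned to -0.031 and -0.019, within leave-one-out ranges of -0.031 to 0.156 and -0.019 to 0.072. The cause of these shifts was not tested. With the replicate number as a block (replicate block) 1447 genes changed and 9 members were lower. With block and offset together 1330 genes changed and 9 members were lower. After each group's mean was subtracted gene by gene, same-numbered dishes correlated at -0.212, -0.051 and -0.192. Dishes of different number correlated at -0.077 to 0.232, so the numbers were not taken as pairs. Depth limits the 42 untested members.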
